A study of Xenopus laevis with 6 samples.

Results

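The genes described here are the extracellular matrix genes of the *Xenopus laevis* tadpole brain that the array annotation names: collagens, laminins, matrix metalloproteinases, their tissue inhibitors, ADAMTS proteases, and a short list of matrix glycoproteins and proteoglycans. They were picked by gene name, and this set of names was chosen with earlier results of these data known. A probe set entered if the annotation gave it exactly 1 gene symbol and that symbol began as a collagen (col and a digit), laminin (lama, lamb or lamc and a digit), mmp, timp or adamts gene, or was fn1, sparc, dcn, lum, bgn, vcan, ncan, bcan, tnc, tnr, postn, nid1 or hspg2. This gave 53 genes with 76 probe sets, out of 11303 genes with a probe set of 1 gene name and 32539 probe sets in all. *X. laevis* is an allotetraploid frog whose genome holds a long (.L) and a short (.S) copy of many genes. The copies were counted as separate genes: 36 were L copies, 16 were S copies and 1 (*col9a1-b*) had no copy letter. The only laminin found was *lamb2.L*, and no probe set was found for *ncan*, *tnr*, *postn*, *nid1* or *hspg2*.

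The study asked which genes responded to the hormone leptin in the tadpole brain. Premetamorphic tadpoles at Nieuwkoop–Faber (NF) stage 54 received an intracerebroventricular (i.c.v.) injection and tissue was taken 2 h later. The tested tadpoles received recombinant *X. laevis* leptin (rxLeptin) at 20 ng per g of body weight (arrays 4, 5 and 6), and the controls received 0.6% saline (arrays 1, 2 and 3). Each of the 6 arrays carried RNA pooled from 3 brains, dissected to the preoptic area, hypothalamus and pituitary, so an array is an average over animals and cell types and the spread between arrays is the spread between pools. Both groups were injected.

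The extracellular matrix is the protein and sugar network around cells. Fibrillar collagens give connective tissue its tensile strength, network collagens and laminins form the basement membranes around blood vessels and under the meninges, and small proteoglycans attach to collagen fibrils and control their spacing. Brain tissue itself holds little fibrillar collagen: its matrix is built on hyaluronan bound by the lectican proteoglycans, with tenascins as linkers, and is found around neurons and in the zones where neural progenitors divide. Matrix metalloproteinases (MMPs) and ADAMTS enzymes cut matrix proteins, TIMPs block MMPs, and in frogs several MMPs are known for their part in tissue remodelling during metamorphosis.

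Values are log2 expression values, on which a difference of 1 is a 2-fold difference. A gene with several probe sets was represented by the probe set with the highest mean. A probe set was tested if its spread over the 6 arrays (interquartile range) was above the median spread of 0.173, which kept 16269 probe sets. It was called higher or lower where limma's adjusted p was under 0.05. Of the 53 matrix genes, 27 were tested and 26 were too even over the arrays to enter the test. Of all probe sets tested, 46.3% were called, so a call was common in this comparison. Among the 27 tested matrix genes 8 rose (29.6%, against 23.1% of all tested genes), 7 fell (25.9%, against 23.3%) and 12 were not called. Both shares were near those of all genes. In a fit without the variance filter the median log2 fold change was -0.03 over the 53 matrix genes, against -0.02 over all 11303 genes.

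The changes were small. The 15 calls had fold changes of 1.21 to 1.42, with log2 changes between 0.28 and 0.50 in size and adjusted p between 0.003 and 0.044. In 11 of the 15 the 3 rxLeptin arrays did not overlap the 3 saline arrays. Over all genes 1237 were called higher and 1249 lower, and 1464 of these called genes had groups that did not overlap. Over the tested matrix genes the arrays stood apart with rxLeptin higher in 8 (29.6%, against 15.5% of all tested genes) and with rxLeptin lower in 6 (22.2%, against 22.3%). The variance filter favours genes whose groups stand apart, so these counts describe the tested genes only. In the other 4 called matrix genes, *col3a1.S*, *mmp2.S*, *col9a1.L* and *timp-1.L*, saline array 3 lay inside the range of the rxLeptin arrays, as did saline arrays 1 and 2 for *col3a1.S*. Over all called genes saline array 3 lay inside that range in 775. In whole tissue, fewer cells of a type and less RNA per cell cannot be told apart.

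**Figure D1:**
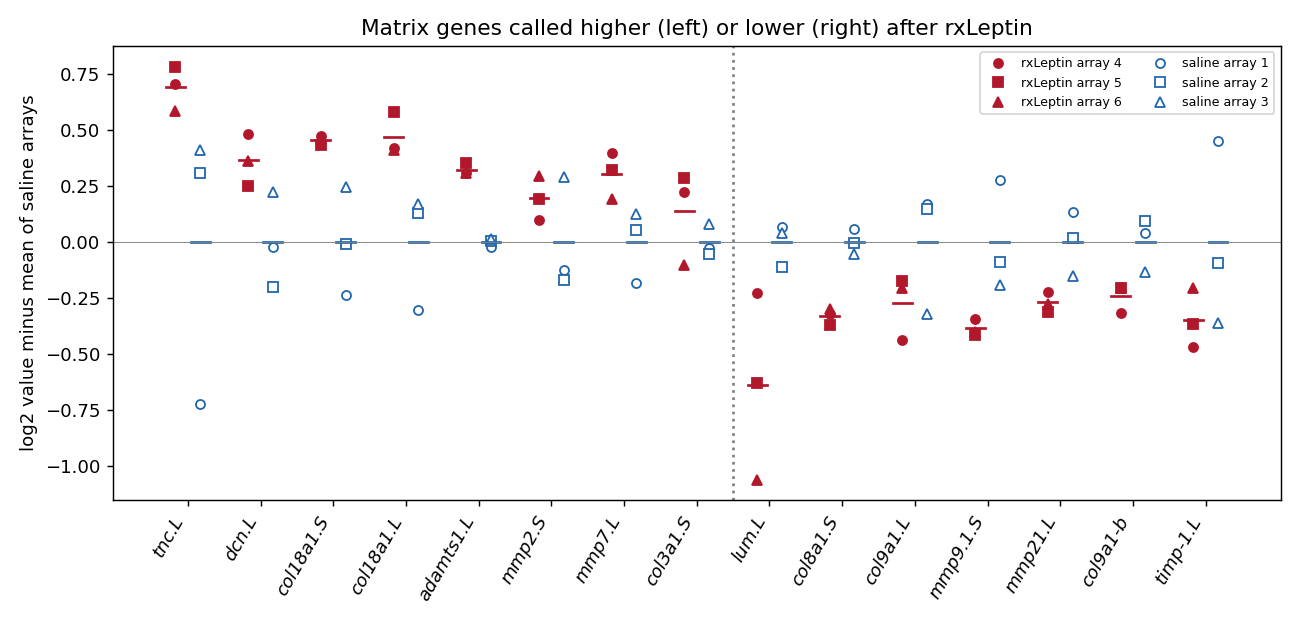
Log2 value of each called matrix gene minus the mean of its 3 saline arrays, one symbol per array, with rxLeptin arrays (filled, red) to the left of saline arrays (open, blue) and short lines at the plain group means. The 8 genes that rose after rxLeptin are left of the dotted line and the 7 that fell are right of it; *tnc.L* and *timp-1.L* show saline array 1 far from the other saline arrays.

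The arrays were not equal, and the calls rested on how they were weighted. The fit gave weights of 1.20, 4.27 and 0.60 to rxLeptin arrays 4, 5 and 6, against 0.30, 3.96 and 0.27 for saline arrays 1, 2 and 3, so array 5 and array 2 carried most of each estimate. The actin control probe sets showed a larger excess of 3′ signal on saline arrays 1 and 2: the 3′ probe set exceeded the middle one by 0.67, 0.60 and 0.66 log2 units on rxLeptin arrays 4, 5 and 6, against 2.83, 1.61 and 0.77 on saline arrays 1, 2 and 3. For the GAPDH control the 3′ probe set exceeded the 5′ one by 1.11, 0.94 and 0.93, against 2.71, 1.18 and 1.02, in the same order. By GAPDH, saline array 1 stood well apart and saline array 2 was close to rxLeptin array 4. None of the 15 calls passed the test without array weights, with each array centred on its median, with the actin difference as a covariate, or without saline array 1 or saline array 2. In those fits 8, 6, 0, 6 and 5 of them had an unadjusted p under 0.05 in limma, although 2 and 3 of the 15 were not tested in the last 2 fits. Without saline array 3, 3 matrix genes passed, and without rxLeptin array 5, 4 passed. All 15 kept their direction without array weights, and every one of them kept it in each fit without 1 array that tested it, while *tnc.L* and *timp-1.L* changed direction with the actin covariate. The part of RNA quality in these differences was not tested beyond that fit.

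**Figure D2:**
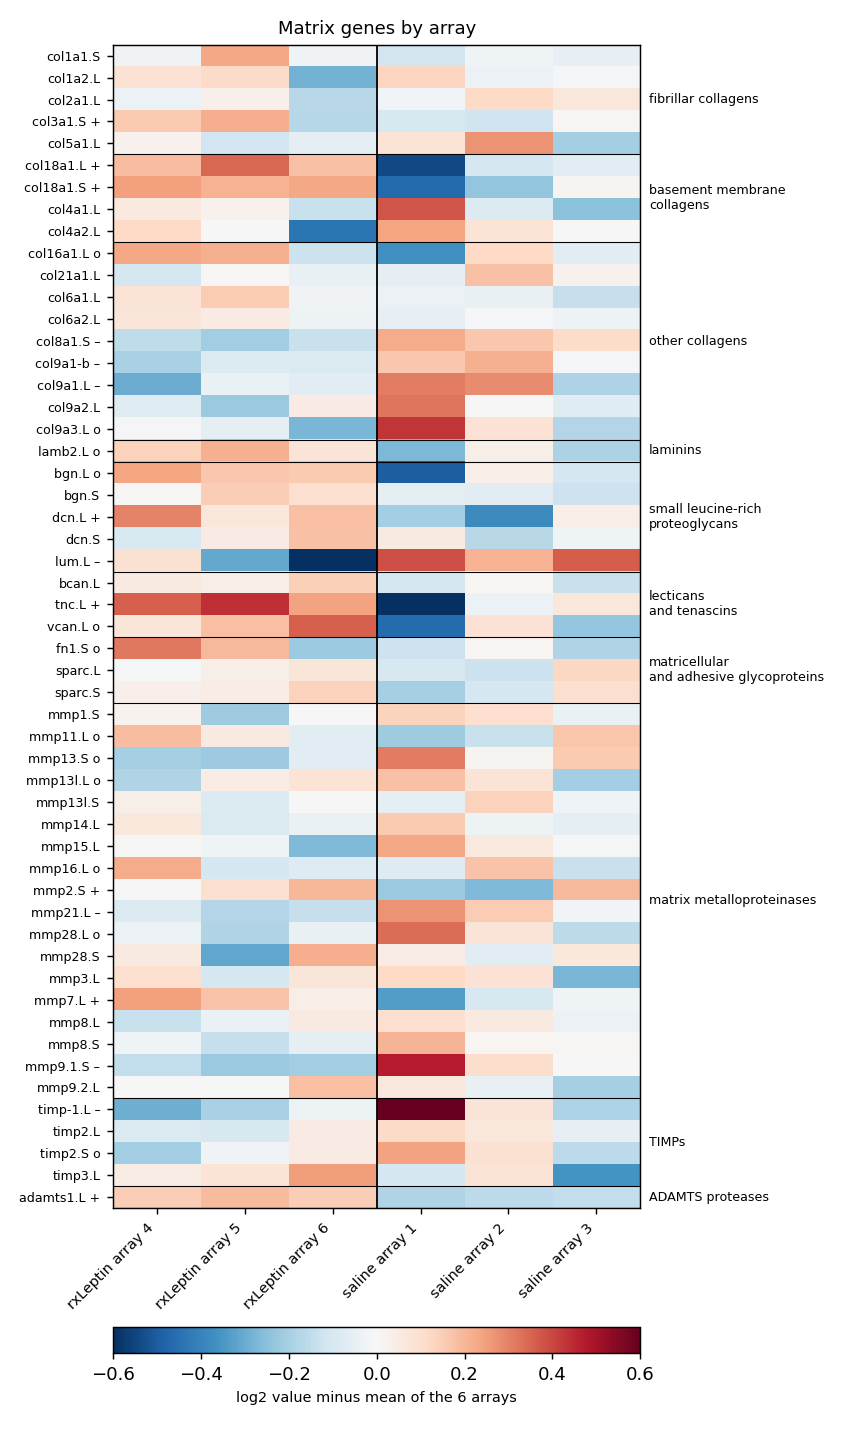
Log2 value minus the mean of the 6 arrays for the 53 matrix genes, grouped by role, with rxLeptin arrays 4 to 6 left of the line and saline arrays 1 to 3 right of it. A plus marks genes that rose after rxLeptin, a minus those that fell, a circle those tested and not called, and no mark those not tested; colours end at 0.6 log2 units in either direction, which 3 values exceed, and saline array 1 holds the strongest colours in many rows.

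Collagens changed in both directions. Of 18 collagen genes 8 were tested, of which 3 rose and 3 fell. The 3 that rose were *col3a1.S* and both copies of *col18a1*, and the 3 that fell were *col8a1.S*, *col9a1-b* and *col9a1.L*. Most classes had few tested genes (1 of 5 fibrillar and 2 of 4 basement membrane collagens), and no difference between classes was tested. Over all tested genes 23.1% rose and 23.3% fell, and the collagens were not tested against these shares.

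Collagen XVIII, the basement membrane collagen whose C-terminal fragment is endostatin, was the one gene with both copies tested, and both copies rose. *col18a1.S* was at 9.13, 9.09 and 9.11 on rxLeptin arrays 4, 5 and 6, against 8.42, 8.64 and 8.90 on saline arrays 1, 2 and 3. The rxLeptin arrays lay within a narrow band above all 3 saline arrays, which were spread more widely. Its log2 fold change was 0.46 ± 0.096 (SE, adjusted p = 0.0033). *col18a1.L* was at 9.98, 10.14 and 9.97 after rxLeptin, against 9.26, 9.70 and 9.73 after saline, and its log2 fold change was 0.43 ± 0.10 (adjusted p = 0.0071). All rxLeptin arrays were again above all saline arrays, with saline array 1 the lowest. In the fits without 1 array the log2 fold change ran from 0.33 to 0.57 for *col18a1.S* and from 0.29 to 0.62 for *col18a1.L*. With the actin covariate it was 0.23 for *col18a1.S* and 0.16 for *col18a1.L*. The chains of collagen IV, the main network collagen of basement membranes, were too even to be tested on their representative probe sets. *col4a1.L* was at 6.74, 6.70 and 6.54 after rxLeptin and at 7.05, 6.59 and 6.43 after saline. *col4a2.L* was at 5.96, 5.83 and 5.40 after rxLeptin and at 6.07, 5.92 and 5.84 after saline. The groups overlapped for both chains. A second *col4a1.L* probe set (Xl2.21561.1.S1_at) was tested and not called, with overlapping groups (log2 fold change -0.30 ± 0.16, adjusted p = 0.141). The basement membrane laminin *lamb2.L*, the beta2 chain, had 8.15, 8.23 and 8.09 after rxLeptin, against 7.74, 8.05 and 7.82 after saline. Its groups did not overlap, but its log2 fold change of 0.18 ± 0.098 did not pass the test (adjusted p = 0.132).

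Among the 5 fibrillar collagens only *col3a1.S*, the chain of collagen III found around vessels and in soft connective tissue, was tested, and it rose. It had 11.59, 11.65 and 11.26 after rxLeptin, against 11.34, 11.31 and 11.45 after saline. rxLeptin array 6 was the lowest of the 6 arrays, below every saline array, and array 6 was also the lowest in 3 of the 5 fibrillar collagens. The weighted log2 fold change was 0.28 ± 0.10 (adjusted p = 0.042), while the plain difference of the means was 0.14. *col1a1.S*, a chain of collagen I, was not tested but had 10.37, 10.62 and 10.36 after rxLeptin against 10.28, 10.36 and 10.34 after saline. Its plain difference of 0.13 was small, with array 5 well above the rest. *col2a1.L* and *col5a1.L*, chains of collagens II and V, were not tested and their groups overlapped.

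The probe sets of *col1a2.L*, the second chain of collagen I, did not move together. The representative one was too even to be tested, at 11.33, 11.36 and 10.96 after rxLeptin and 11.37, 11.20 and 11.23 after saline. A second probe set of the same gene (Xl2.49126.1.S1_a_at) had 10.42, 10.50 and 10.01 after rxLeptin, against 9.75, 9.998 and 10.32 after saline, and rose (log2 fold change 0.43 ± 0.12, adjusted p = 0.011). The third (Xl2.49126.2.S1_at) had 5.96, 6.09 and 6.08 after rxLeptin, against 6.61, 6.30 and 6.46 after saline, and fell (log2 fold change -0.26 ± 0.098, adjusted p = 0.043). These 3 probe sets therefore gave no single direction for the gene. The rise of the second was 0.22 without rxLeptin array 5, 0.25 without array 4 and 0.27 without saline array 1, and the fall of the third was -0.47 without saline array 2.

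The collagens that fell on their representative probe sets were *col8a1.S* and 2 of the 4 collagen IX genes, *col9a1-b* and *col9a1.L*. Collagen VIII is a short-chain collagen of endothelial and corneal basement membranes. *col8a1.S* had 4.26, 4.21 and 4.28 after rxLeptin, against 4.64, 4.57 and 4.52 after saline. Both groups were tight and did not overlap, and the log2 fold change of -0.35 ± 0.091 passed the test (adjusted p = 0.0096). These are low array values, and RMA values carry no detection call. Collagen IX decorates collagen II fibrils in cartilage and in the eye. *col9a1-b* had 6.80, 6.91 and 6.91 after rxLeptin, against 7.16, 7.21 and 6.98 after saline, a log2 fold change of -0.30 ± 0.094 (adjusted p = 0.022). *col9a1.L* had 5.9999, 6.26 and 6.23 after rxLeptin, against 6.61, 6.58 and 6.11 after saline, a log2 fold change of -0.35 ± 0.11 (adjusted p = 0.022). Here saline array 3 lay with the rxLeptin arrays, and the log2 fold change was -0.14 without saline array 1 and -0.15 without saline array 2. The third collagen IX chain tested, *col9a3.L*, had 8.44, 8.41 and 8.18 after rxLeptin and 8.89, 8.55 and 8.28 after saline (log2 fold change -0.16, adjusted p = 0.202). No other collagen was called on its representative probe set. *col16a1.L*, a fibril-associated collagen, was not called, at 0.11 on the log2 scale (adjusted p = 0.419). The chains of collagen VI, the beaded-filament collagen around many cells, were not tested: *col6a1.L* was 0.14 higher and *col6a2.L* 0.06 higher on the plain means.

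The small leucine-rich proteoglycans, which bind collagen fibrils, split. *dcn.L* (decorin, which also binds TGFbeta) had 7.34, 7.10 and 7.22 after rxLeptin, against 6.83, 6.65 and 7.08 after saline. Its groups came close at rxLeptin array 5 and saline array 3 without overlapping. The log2 fold change was 0.47 ± 0.11 (adjusted p = 0.0048), and 0.29 without saline array 1. *lum.L* (lumican, the keratan sulphate proteoglycan of cornea and connective tissue) moved the other way. It had 5.21, 4.81 and 4.37 after rxLeptin, against 5.501, 5.32 and 5.48 after saline. Its array values were low. The saline arrays were tight and the rxLeptin arrays widely spread, with array 6 the lowest. Its log2 fold change was -0.50 ± 0.13 (adjusted p = 0.011), and -0.32 without rxLeptin array 6. *bgn.L* (biglycan) had 9.92, 9.84 and 9.84 after rxLeptin, against 9.19, 9.72 and 9.58 after saline. Its groups did not overlap, but the log2 fold change of 0.18 ± 0.10 did not pass the test (adjusted p = 0.159). The S copies of decorin and biglycan were not tested. *bgn.S* was 0.17 higher after rxLeptin on the plain means with groups apart, and *dcn.S* was 0.09 higher with groups that overlapped.

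The lecticans and tenascins, the brain's own matrix, held the largest change among the tested matrix probe sets. Tenascin C, a glycoprotein of neural progenitor zones and of remodelling tissue, rose on its representative probe set (Xl2.24480.1.S1_at). *tnc.L* had 8.71, 8.79 and 8.59 after rxLeptin, against 7.28, 8.31 and 8.42 after saline. All rxLeptin arrays were above all saline arrays, and saline array 1 was more than 1 log2 unit below every other array. The log2 fold change was 0.50 ± 0.14 (adjusted p = 0.012). It was 0.39 without saline array 1, 0.91 without saline array 2 and 0.95 without saline array 3. Without rxLeptin arrays 4, 5 and 6 it was 0.40, 0.36 and 0.46, and with the actin covariate it was -0.12. The second *tnc.L* probe set (Xl2.21448.1.S1_at) did not follow: it had 8.48, 7.93 and 7.25 after rxLeptin and 7.62, 8.50 and 8.19 after saline, with overlapping groups and a log2 fold change of -0.45 ± 0.19 (adjusted p = 0.063).

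Versican, a large hyaluronan-binding proteoglycan, was read by 5 probe sets of *vcan.L*, all tested. Of these, 2 rose and 3 were not called. Xl2.24776.3.S1_at had 8.88, 8.70 and 7.94 after rxLeptin, against 6.87, 7.92 and 7.81 after saline, and its log2 fold change of 0.82 ± 0.17 was the largest of all tested matrix probe sets (adjusted p = 0.0033). rxLeptin array 6 lay only just above saline array 2. Xl2.24776.1.A1_at had 10.52, 10.52 and 10.86 after rxLeptin, against 9.59, 10.26 and 10.11 after saline (log2 fold change 0.35 ± 0.12, adjusted p = 0.030). The estimates were larger without saline array 2, at 1.33 and 0.70, and without saline array 3, at 1.27 and 0.63. Without saline array 1 they were 0.80 and 0.37, and with the actin covariate they fell to 0.28 and 0.050. Without rxLeptin array 6 the estimate for Xl2.24776.1.A1_at was 0.28. The representative probe set (Xl2.46796.1.S1_s_at) had 11.79, 11.90 and 12.08 after rxLeptin and 11.26, 11.81 and 11.49 after saline. Its groups overlapped between rxLeptin array 4 and saline array 2, and its weighted log2 fold change was 0.14 ± 0.11 (adjusted p = 0.292), while the plain difference was 0.40. Of the other 2 probe sets, Xl2.24776.2.A1_at differed by 0.28 (adjusted p = 0.183) and Xl2.46796.1.S1_at by -0.01 (adjusted p = 0.938) on the log2 scale. Brevican, the lectican of mature brain matrix, was not tested. *bcan.L* had 10.64, 10.62 and 10.73 after rxLeptin, against 10.48, 10.60 and 10.45 after saline, which did not overlap but differed by only 0.15 on the plain means.

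**Figure D3:**
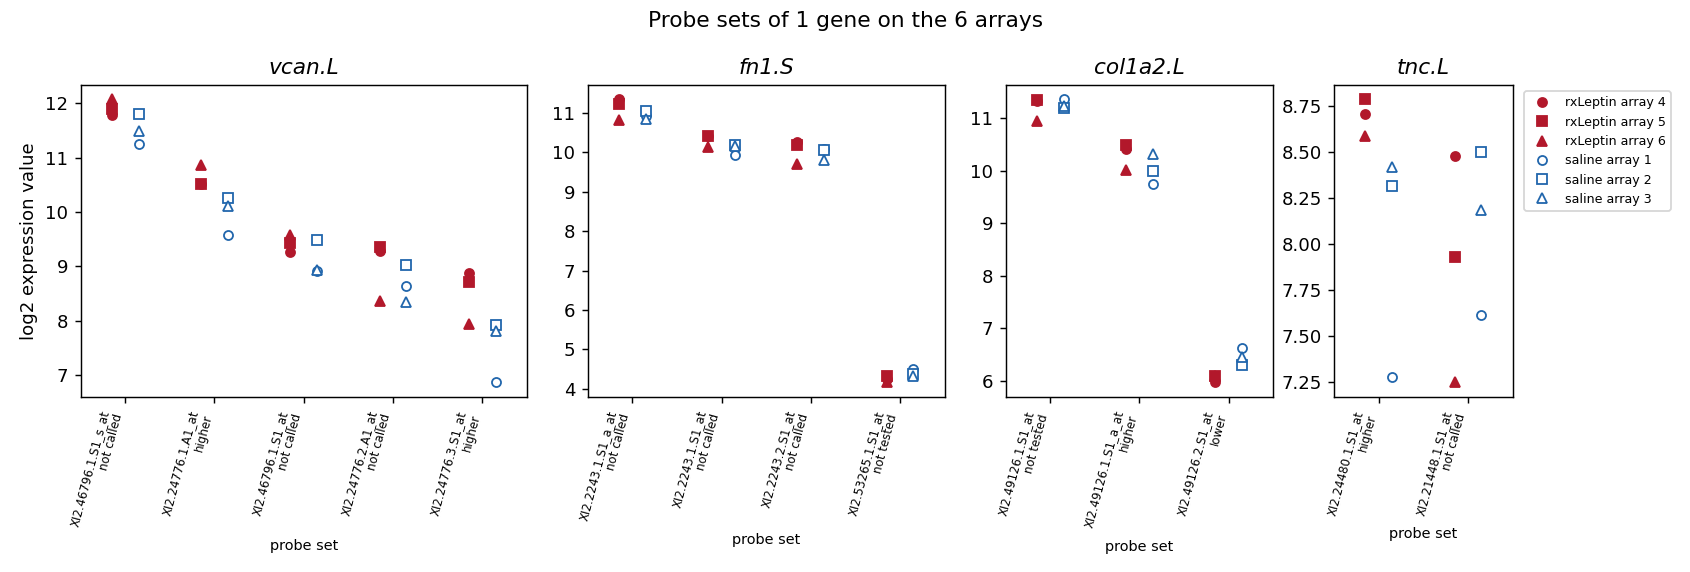
Log2 expression values on the 6 arrays for every probe set of *vcan.L*, *fn1.S*, *col1a2.L* and *tnc.L*, with rxLeptin arrays (filled, red) left of saline arrays (open, blue) and the call written under each probe set; the vertical scale differs between panels and levels are not comparable between probe sets. Probe sets of 1 gene disagree: 2 of 5 rose for *vcan.L*, 1 rose and 1 fell for *col1a2.L*, and 1 of 2 rose for *tnc.L*.

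Fibronectin and osteonectin (SPARC), adhesive and collagen-binding glycoproteins, showed no call. *fn1.S* had 11.35, 11.23 and 10.81 after rxLeptin and 10.91, 11.04 and 10.85 after saline (log2 fold change 0.19 ± 0.11, adjusted p = 0.167). rxLeptin array 6 was the lowest of the 6 arrays. Of its other 3 probe sets 2 were tested, with log2 fold changes of 0.21 (adjusted p = 0.092) and 0.10 (adjusted p = 0.482). Both *sparc* copies were too even to be tested: *sparc.S* had 12.39, 12.41 and 12.499 after rxLeptin and 12.16, 12.25 and 12.46 after saline.

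The enzymes that cut matrix also changed in both directions. Of 18 MMP genes 9 were tested, 2 rose, 2 fell and 5 were not called. Calls of 2 in 9 in each direction were near the shares over all tested genes, 23.1% higher and 23.3% lower. *mmp2.S* (gelatinase A, which cuts collagen IV and denatured collagen) had 8.46, 8.56 and 8.66 after rxLeptin, against 8.24, 8.20 and 8.66 after saline. Saline arrays 1 and 2 lay below all rxLeptin arrays and saline array 3 lay with the highest of them. Its weighted log2 fold change was 0.32 ± 0.10 (adjusted p = 0.023). The plain difference was 0.20, and the weighted value was 0.12 without saline array 1 and 0.10 without saline array 2. *mmp7.L* (matrilysin) had 8.47, 8.40 and 8.27 after rxLeptin, against 7.89, 8.13 and 8.20 after saline, and its groups did not overlap (log2 fold change 0.28 ± 0.096, adjusted p = 0.031). A second *mmp7.L* probe set (Xl2.35412.1.S1_at) was not called, with a log2 fold change of -0.15 (adjusted p = 0.266).

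The MMPs that fell had low array values. *mmp9.1.S* (an MMP9 gene, gelatinase B) had 5.28, 5.21 and 5.23 after rxLeptin, against 5.90, 5.54 and 5.43 after saline. The rxLeptin arrays were nearly equal and below all saline arrays. The log2 fold change was -0.33 ± 0.097 (adjusted p = 0.018). It was -0.26 without saline array 1, -0.49 without saline array 3 and -0.080 with the actin covariate. *mmp21.L* had 5.71, 5.62 and 5.66 after rxLeptin, against 6.07, 5.95 and 5.78 after saline, and its groups did not overlap either (log2 fold change -0.31 ± 0.093, adjusted p = 0.020). *mmp13.S* (collagenase 3) had 3.98, 3.96 and 4.11 after rxLeptin and 4.49, 4.20 and 4.34 after saline, with a log2 fold change of -0.24 that just missed the threshold (adjusted p = 0.054). In *mmp28.L* (epilysin) the 2 tested probe sets had opposite signs, -0.22 (adjusted p = 0.084) and 0.14 (adjusted p = 0.300), and neither was called. *mmp15.L*, a membrane-bound MMP, was not tested: it had 10.86, 10.82 and 10.58 after rxLeptin and 11.08, 10.91 and 10.84 after saline.

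A single array stood at an end of the range for many MMPs. rxLeptin array 5 was the lowest of the 6 arrays in 9 of the 18 MMP genes (50%), and saline array 1, the array with the largest actin 3′ excess, was the highest in 11 (61.1%). Over all 11303 genes these shares were 12.0% and 39.5%, and the difference was not tested. Over all 53 matrix genes saline array 1 was the highest in 22 (41.5%) and the lowest in 13 (24.5%). It was the lowest in 22.3% of all genes, so both of its shares over the 53 matrix genes were close to those over all genes.

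Of the inhibitors, 1 fell. *timp-1.L*, a TIMP1 gene, had 7.92, 8.02 and 8.18 after rxLeptin, against 8.84, 8.30 and 8.03 after saline. The saline arrays spread over more than the whole difference, with array 3 inside the rxLeptin range and array 1 far above. The log2 fold change was -0.30 ± 0.11 (adjusted p = 0.044), the highest adjusted p of the 15 calls. It was -0.14 without saline array 1, -0.55 without saline array 3 and -0.20 without rxLeptin array 4. *timp2.S* had 10.47, 10.66 and 10.73 after rxLeptin and 10.92, 10.77 and 10.52 after saline (log2 fold change -0.14, adjusted p = 0.254). *timp3.L*, the inhibitor that stays bound to matrix, was not tested, and its groups overlapped. The single ADAMTS protease, *adamts1.L*, which cuts versican and aggrecan, gave the cleanest separation of the called genes. It had 8.39, 8.43 and 8.39 after rxLeptin, against 8.06, 8.09 and 8.10 after saline. The arrays within each group were nearly equal, and the log2 fold change of 0.33 ± 0.090 (adjusted p = 0.012) lay between 0.30 and 0.35 in the fits without 1 array.

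**Figure D4:**
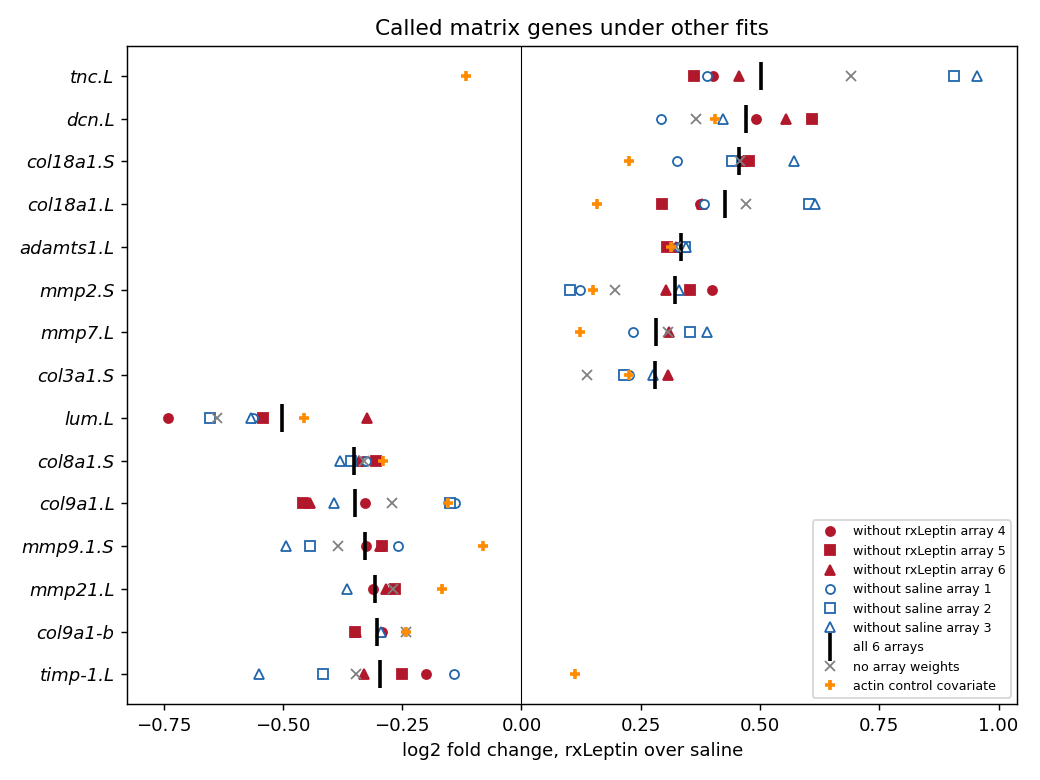
Log2 fold change (rxLeptin over saline) of the 15 called matrix genes in the fit to all 6 arrays (black bar), without each array in turn, without array weights (cross) and with the actin control difference as covariate (plus). Values of *adamts1.L* and *col8a1.S* stay close together, those of *tnc.L* spread widely, and only *tnc.L* and *timp-1.L* cross 0, with the actin covariate.

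The L and S copies could rarely be compared. For 8 genes (*col18a1*, *bgn*, *dcn*, *sparc*, *timp2*, *mmp8*, *mmp13l* and *mmp28*) both copies were on the array, and *col18a1* was the only one with both copies tested. Of the 26 untested matrix genes, 5 had groups that did not overlap: *col1a1.S*, *col6a1.L*, *bcan.L* and *bgn.S* were higher after rxLeptin and *mmp8.S* (neutrophil collagenase) lower. Over all untested genes 1105 of 5938 had groups that did not overlap, a similar share. The plain differences of the untested genes ran from -0.21 to 0.25. Of the 53 genes 16 had more than 1 probe set. Counting any probe set, 30 genes were tested and 17 were called in at least 1 of them, the 2 further genes being *vcan.L* and *col1a2.L*. A gene with several tested probe sets has more ways to be called. No share over all genes was counted in this way, so this count has no background to be read against.

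The genes that make, bind and turn over matrix were counted from lists of pathway genes. Over all tested genes 23.1% rose and 23.3% fell, and no list was tested against these shares. The list for collagen synthesis and crosslinking had 26 genes, of which 15 were tested, 5 rose and 5 fell. *lox.L* (lysyl oxidase, which crosslinks collagen) had 4.58, 4.85 and 4.93 after rxLeptin, against 4.51, 4.15 and 4.74 after saline. Its array values were low and its groups overlapped. The weighted log2 fold change of 0.59 ± 0.12 (adjusted p = 0.0026) was 0.32 as a plain difference. *pcolce.S*, which speeds the trimming of procollagen, likewise had a weighted log2 fold change of 0.54 ± 0.13 (adjusted p = 0.0066) and a plain difference of 0.27. *serpinh1.S* (HSP47, the collagen chaperone, which is also a heat shock protein) fell the most. It had 9.46, 9.16 and 9.59 after rxLeptin, against 10.30, 10.24 and 9.94 after saline, with no overlap (log2 fold change -0.96 ± 0.12, adjusted p = 0.00017). *colgalt1.S*, which adds galactose to collagen hydroxylysines, fell by 0.50 on the log2 scale (adjusted p = 0.0024).

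Of 25 other matrix components 13 were tested, 7 rose and 6 were not called, where 23.1% of all tested genes rose. *thbs1.S* (thrombospondin 1) had 10.60, 10.49 and 10.80 after rxLeptin, against 9.53, 9.94 and 10.34 after saline (log2 fold change 0.61 ± 0.11, adjusted p = 0.0017). *has2.S*, a hyaluronan synthase that makes the polymer lecticans bind, had 7.33, 7.34 and 7.70 after rxLeptin, against 6.56, 6.77 and 7.03 after saline (log2 fold change 0.60 ± 0.11, adjusted p = 0.0013). Neither gene's groups overlapped. Of 26 matrix receptors and surface proteoglycans 13 were tested, 2 rose and 1 fell. *sdc4.S* (syndecan 4) had 7.33, 7.11 and 7.40 after rxLeptin, against 6.21, 5.41 and 7.16 after saline. Saline array 3 lay inside the rxLeptin range, and the weighted log2 fold change of 1.62 ± 0.20 (adjusted p = 0.00017) was 1.02 as a plain difference. *gpc4.L*, a glypican, rose by 0.43 (adjusted p = 0.0055) and *itga3.L*, an integrin chain that pairs into a laminin receptor, fell by 0.24 on the log2 scale (adjusted p = 0.049). Of 13 further proteases and inhibitors 6 were tested, 2 rose and 1 fell. The copies of cathepsin B, a lysosomal protease, moved apart: *ctsb.L* rose by 0.50 (adjusted p = 0.0054) and *ctsb.S* fell by 0.34 on the log2 scale (adjusted p = 0.042). The groups of *ctsb.L* overlapped, with saline array 3 above every rxLeptin array, while those of *ctsb.S* did not.

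Markers of the dissected tissue were present, among them *pomc.L* of the pituitary and *nkx2-1.L* of the hypothalamus. Some marker lists differed between the groups in summed signal. Over all tested genes 23.1% rose and 23.3% fell, and no marker list was tested against these shares. Skeletal muscle markers were lower after rxLeptin: of 13 genes 9 were tested and 7 fell, though *myh4.L*, with overlapping groups, fell only in the weighted fit (log2 fold change -0.59, against 0.12 as a plain difference). Their summed signal was 10.51 to 10.53 log2 units on rxLeptin arrays, against 10.86 to 10.99 on saline arrays. The summed signal of 12 neuronal markers, of which 5 were tested and 2 rose, was 16.433 to 16.50 on rxLeptin arrays, against 16.20 to 16.427 on saline arrays. That of 10 hypothalamic markers, of which 3 were tested, 1 rose and 1 fell, was 11.55 to 11.70 on rxLeptin arrays, against 11.74 to 11.98 on saline arrays. For these 3 lists the groups did not overlap, though the gap was narrow for the neuronal and hypothalamic lists. The hypothalamic markers with the highest signal, *nkx2-1.L* (not called) and *trh.S* (not tested), each had groups that overlapped. *trh.L* and *nkx2-4.S*, not tested, were lower with groups apart. Single neuronal markers went both ways: *elavl4.L* and *gap43.S* rose, while *snap25.S*, not tested, was lower with groups apart. Summed signals of the erythroid, skin, radial glia and progenitor, and microglia and leukocyte lists overlapped between the groups. The lists for cells that make much matrix overlapped in summed signal but held calls. Of 13 markers of meninges and fibroblasts 6 were tested, 3 rose (*slc6a13.L* by 0.76, *igf2.S* by 0.69 and *igf2.L* by 0.59 on the log2 scale) and 3 were not called. Their summed signal was 14.61 to 14.79 on rxLeptin arrays and 14.71 to 14.94 on saline arrays, most of it from *ptgds.S*, which was not tested. Members without a call went both ways with groups apart. Plain differences were -0.44 for *zic1.S* (not tested), -0.38 for *foxd1.L* (not called) and 0.34 for *pdgfra.L* (not called). The median plain difference of these 13 markers was -0.09. Of 7 cartilage markers 6 were tested, 2 rose (*sox9.L* by 0.45 and *matn4.L* by 0.35) and 4 were not called, with a summed signal of 11.86 to 12.00 on rxLeptin arrays and 11.81 to 12.07 on saline arrays. The other copy *sox9.S*, with the higher signal, was not tested. It was lower after rxLeptin with groups only just apart (plain difference -0.10). Of 9 markers of endothelium and pericytes 6 were tested, 1 rose (*tek.S* by 0.34) and 2 fell (*egfl7.S* by 0.65 and *flt1.S* by 0.36), with a summed signal of 12.55 to 12.64 on rxLeptin arrays and 12.498 to 12.56 on saline arrays. The other copy *egfl7.L*, not tested, had groups apart the other way, with a plain difference of 0.21. Groups were also apart for *rgs5.S*, not called (0.23), and *flt1.L*, not tested (-0.29). For *igf2.S*, *igf2.L*, *sox9.L* and *flt1.S* saline array 3 lay inside the range of the rxLeptin arrays. The pituitary list, with 8 of 12 genes tested and 3 lower, was lowest on rxLeptin array 6, at 14.97, against 15.58 to 15.81 on the other 5 arrays. The part of cell makeup in the matrix differences was not tested.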

How the data were processed

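Total RNA pools were hybridised to the Affymetrix *Xenopus laevis* Genome 2.0 Array. The deposited values are log2 expression values, which the authors background-corrected, normalised and summarised per probe set by RMA in the affy package. Per the study's methods, uninformative probe sets were removed and limma was run with array weights. The annotation of the array names 1 gene for 15495 probe sets, and all 53 matrix genes matched the RefSeq gene table by Entrez gene identifier.

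Here 96 control probe sets were dropped (64 reporter probe sets stayed), the interquartile range filter was applied, and rxLeptin was compared with saline in limma 3.58.1 (R 4.3.3) with arrayWeights, eBayes and Benjamini-Hochberg adjustment over all 16269 tested probe sets at 0.05. The steps were tested on simulated data with equal noise on every array, so that test did not cover arrays of unequal quality. Only 3 arrays per group limit the precision. Named genes were, in each role, up to 4 called genes with the largest change, the gene with the highest mean, gene pairs with both copies tested, genes whose probe sets disagreed, and up to 2 pathway genes per direction. Others were named after their values were seen. The matrix genes and lists were chosen with earlier results of these data known. Alternatives covered filters, array weights, scaling, moderation, an actin covariate, a minimum fold change and leaving out each array.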

Additional observations from a re-analysis of the deposited data

How the results depend on the processing

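The number of matrix genes called (15, 8 higher and 7 lower) was 14 to 18 with no or a milder variance filter, quantile normalization, robust or trended moderation, without probe sets shared between transcripts, and with other ways of representing a gene. It was 0 in each direction without array weights, with median centring, with the actin covariate and against a minimum log2 fold change of 0.25. The number of all probe sets called (7525, 3759 higher and 3766 lower) was 0 in the first 3 of these, where 4262, 3810 and 847 had an unadjusted p under 0.05 in limma, and 1566 (1178 and 388) in the fourth. Without array weights 8 of the 15 called matrix genes had an unadjusted p under 0.05, with median centring 6, with the actin covariate 0 and against the minimum fold change 4. Weights estimated gene by gene left 6 matrix genes (5 higher, 1 lower) and 3994 probe sets (2382 and 1612), and a filter on low signal left 2 (2 and 0) and 1274 (834 and 440). That filter also took many out of the test: 16 matrix genes, among them 8 of the 15 called, and 8777 probe sets were tested. Leaving out 1 array gave 0 to 19 matrix genes called (0 to 10 higher and 0 to 9 lower) and 0 to 8714 probe sets called (0 to 4207 higher and 0 to 4507 lower). The lowest counts came without saline array 1 or 2, where 2633 and 2677 probe sets had an unadjusted p under 0.05, and without saline array 3 they were 3 matrix genes (3 and 0) and 2853 probe sets (1960 and 893). Without rxLeptin array 4, 5 matrix genes were called higher, and without rxLeptin array 5, 4 matrix genes (2 and 2) and 4805 probe sets (2050 of them lower). The cause of these losses was not tested.

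With the actin covariate the log2 fold change changed sign for *timp-1.L* (0.11), *timp2.S* (0.039), *tnc.L* Xl2.24480.1.S1_at (-0.12), *vcan.L* Xl2.46796.1.S1_s_at (-0.027), *mmp13l.L* (0.091), *mmp28.L* Xl2.24086.1.A1_at (0.030), *col16a1.L* (-0.087), *col9a3.L* (0.13) and *bgn.L* (-0.047). Without array weights it did so for *mmp16.L* (0.025) and for *vcan.L* Xl2.46796.1.S1_at (0.31), which was also 0.039 with gene-by-gene weights, 0.32 with median centring and 0.10 with a filter on low signal. Leaving out 1 array gave both signs for 6 uncalled probe sets: *fn1.S* (-0.015 to 0.33), *mmp13l.L* (-0.15 to 0.067), *col16a1.L* (-0.058 to 0.40), *tnc.L* Xl2.21448.1.S1_at (-0.88 to 0.063), and *vcan.L* Xl2.46796.1.S1_at (-0.125 to 0.48) and Xl2.24776.2.A1_at (-0.18 to 0.76). No paired analysis was possible because the labels give no replicate numbers shared between rxLeptin and saline.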

Other observations

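Probe sets annotated with several genes lay outside the count of 53. A probe set for both copies of *col2a1*, the cartilage collagen that collagen IX decorates (Xl2.606.1.S1_s_at), had 7.47, 7.40 and 6.84 after rxLeptin, against 7.76, 7.79 and 7.59 after saline, and fell (log2 fold change -0.42 ± 0.12, adjusted p = 0.014). Its groups did not overlap, and rxLeptin array 6 was the lowest. A second probe set for both copies (Xl2.1286.1.S1_s_at) was not tested: it had 7.54, 7.60 and 7.25 after rxLeptin and 7.80, 7.56 and 7.51 after saline, with groups that overlapped. A probe set for *mmp24* and *mmp14.L*, membrane-bound metalloproteinases, was not tested. It had 9.67, 9.54 and 9.61 after rxLeptin, against 9.27, 9.44 and 9.46 after saline, also without overlap.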
